A study of Mus musculus with 2 samples.

Results

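The Schlafen genes are a mouse gene family tied to growth control and to the interferon response, and 7 of its members were measured in single cells of pancreatic tumors. The members were taken by symbol, namely Slfn1, Slfn2, Slfn3, Slfn4, Slfn5, Slfn8 and Slfn9, and are 7 of the 32285 features in the count matrices. The study compared tumors of mice given PBS with tumors of mice given cmExoaCD11b, exosomes of mouse embryonic fibroblasts that carried IL-12 mRNA and cGAMP, an activator of STING, and bore an antibody to CD11b. Both groups were male C57BL/6J mice with K210 cells implanted in the pancreas, a mouse pancreatic tumor line in which Trp53 was deleted through Pdx1-Cre. The exosomes were injected into the peritoneum every 3 days with 5 µg of cGAMP per mouse, and tumors were taken 48 h after treatment. Each group was a single droplet library of 3 pooled mice, so the 2 libraries had no replicates, no test between them was possible, and the spread between mice is unknown. All intervals are exact 95% intervals that cover counting error only.

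Schlafen proteins share an N-terminal domain and are grouped by length. Slfn1 and Slfn2 are short, Slfn3 and Slfn4 are intermediate, and Slfn5, Slfn8 and Slfn9 are long and carry a helicase-like C-terminal region. Many members are induced by type I interferon, which cells make after STING is activated. Slfn2 is known for keeping T cells quiescent, and Slfn4 for its expression in myeloid cells.

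The 7 genes lay in a cluster of 264 kilobases on chromosome 11, in the order Slfn5, Slfn9, Slfn8, Slfn2, Slfn1, Slfn4 and Slfn3 (RefSeq, GRCm38.p6). The count files name no build, so these coordinates serve only to place the genes. The core of the interferon-stimulated response element, read as GAAA, then any 2 bases, then GAAA, was searched on both strands from 250 bases before to 50 bases after each start site. It was found at the 3 long members and at none of the other 4. It lay 155 to 146 bases before the start of Slfn5, on the gene strand. At Slfn8 and Slfn9 it lay on the opposite strand, 48 to 39 and 45 to 36 bases before the start. Of 32851 mouse promoter windows of that length, 1131 (3.44%) held the element. The longest run of letters shared by Slfn1, Slfn2, Slfn3 and Slfn4 was ACTTCCTGG, which began 74, 55, 42 and 73 bases before their starts. That run was chosen after the letters were seen, and 277 of the 32851 windows (0.843%) held it on either strand. A match describes letters and not binding. The stretches below are printed 5′ to 3′ on the gene strand to show the element in the 3 long members beside the shared run in the most abundant intermediate and short members, each in capitals. They are chr11:82951852-82951984 (Slfn5, plus strand), chr11:83020811-83020990 (Slfn8, minus strand), chr11:82991831-82992010 (Slfn9, minus strand), chr11:83175006-83175185 (Slfn4, plus strand) and chr11:83064932-83065111 (Slfn2, plus strand). Each lies before the start site used, but RefSeq places the outer ends of Slfn5 and Slfn4 further upstream, so the Slfn5 stretch and the last bases of the Slfn4 stretch fall inside the annotated gene.
Slfn5: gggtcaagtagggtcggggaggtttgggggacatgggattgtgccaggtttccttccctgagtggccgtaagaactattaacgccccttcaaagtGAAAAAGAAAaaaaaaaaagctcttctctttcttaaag
Slfn8: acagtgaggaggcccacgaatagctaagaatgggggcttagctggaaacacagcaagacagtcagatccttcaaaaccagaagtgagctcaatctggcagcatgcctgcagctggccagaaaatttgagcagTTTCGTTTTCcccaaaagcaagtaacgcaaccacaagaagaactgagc
Slfn9: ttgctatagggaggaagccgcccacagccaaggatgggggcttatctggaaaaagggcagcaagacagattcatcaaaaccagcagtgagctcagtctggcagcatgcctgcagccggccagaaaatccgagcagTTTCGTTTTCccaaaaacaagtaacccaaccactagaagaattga
Slfn4: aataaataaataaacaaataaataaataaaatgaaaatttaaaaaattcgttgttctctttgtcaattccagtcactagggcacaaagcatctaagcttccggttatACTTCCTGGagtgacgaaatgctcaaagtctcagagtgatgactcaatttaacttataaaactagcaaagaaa
Slfn2: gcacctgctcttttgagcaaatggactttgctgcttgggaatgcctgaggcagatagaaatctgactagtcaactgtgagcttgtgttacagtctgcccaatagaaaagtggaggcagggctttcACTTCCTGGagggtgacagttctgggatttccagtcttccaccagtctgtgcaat
The Slfn8 and Slfn9 stretches shared a run of 20 bases, the longest of any pair among the 7 members, and the next longest was the 15 bases shared by Slfn1 and Slfn4.

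After filtering, 6831 cells of the PBS library and 7064 cells of the cmExoaCD11b library were kept, with medians of 3460 and 4112 UMIs per cell, a UMI being a counted RNA molecule. Cells were put into classes by marker UMIs, and 12 classes were compared. Below, a pair of values is PBS then cmExoaCD11b unless stated. There were 1183 and 1889 immature neutrophils, which express granule genes such as Ltf and Camp, 2571 and 2021 other neutrophils, 247 and 297 monocytes, 141 and 332 CD8 T cells and 49 and 32 tumor epithelial cells. The monocyte gate differed between the libraries, with Arg1, an arginase of tumor macrophages, at 2230 and 80.05 CPM. CPM is a gene's share of the UMIs of its class, scaled to a fixed total. The 30 NK cells of the PBS library carried the neutrophil transcripts S100a8 and S100a9 at 74.7% of their level in empty droplets, against 3.16% in the other library. A total of 16 barcodes occurred in both libraries.

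By pooled UMIs Slfn4 was the leading member in neutrophils, and Slfn2 led in most other cells. The counts come from transcript 3′ ends, where a molecule adds a UMI whatever its length, so members are compared by CPM. Slfn2 ranked first of the 7 members in both libraries in 7 classes, namely macrophages, monocytes, NK cells, B cells and the 3 groups of T cells. Slfn4 ranked first in both libraries in the neutrophil classes, with 39.1% and 46.7% of the family's UMIs in other neutrophils and 51.0% and 57% in immature neutrophils. The leading member of dendritic cells differed between the libraries. Slfn2 held 68.3% of their Schlafen UMIs in the PBS library and 35.6% in the cmExoaCD11b library, and Slfn5 held 16.8% and 52.3%. Slfn3 reached at most 7.85% and Slfn9 at most 4.92% of the family in any class.

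**Figure D1:**
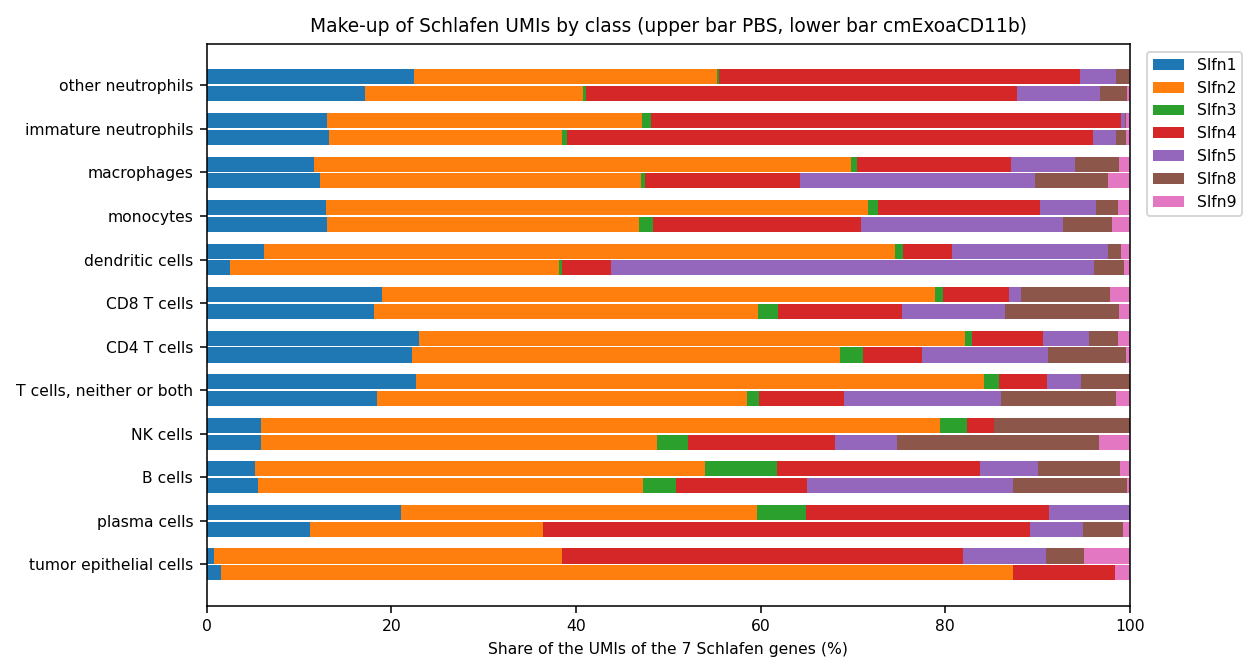
Stacked bars give each member's share (%) of the UMIs of the 7 genes in 12 cell classes of the PBS and cmExoaCD11b libraries. Slfn4 has the largest share in both neutrophil classes, and the Slfn5 share of dendritic cells goes from 16.8% to 52.3%.

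Summed over the family, neutrophils held the most Schlafen RNA, 1758 and 2888 CPM in other neutrophils and 1003 and 1661 CPM in immature neutrophils. Monocytes had 502 and 1163 CPM, dendritic cells 272 and 869 CPM and B cells 124 and 211 CPM. The ratio of the sum, cmExoaCD11b to PBS, ran from 0.906 (0.658 to 1.24) in tumor epithelial cells to 3.20 (2.755 to 3.72) in dendritic cells.

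**Figure D2:**
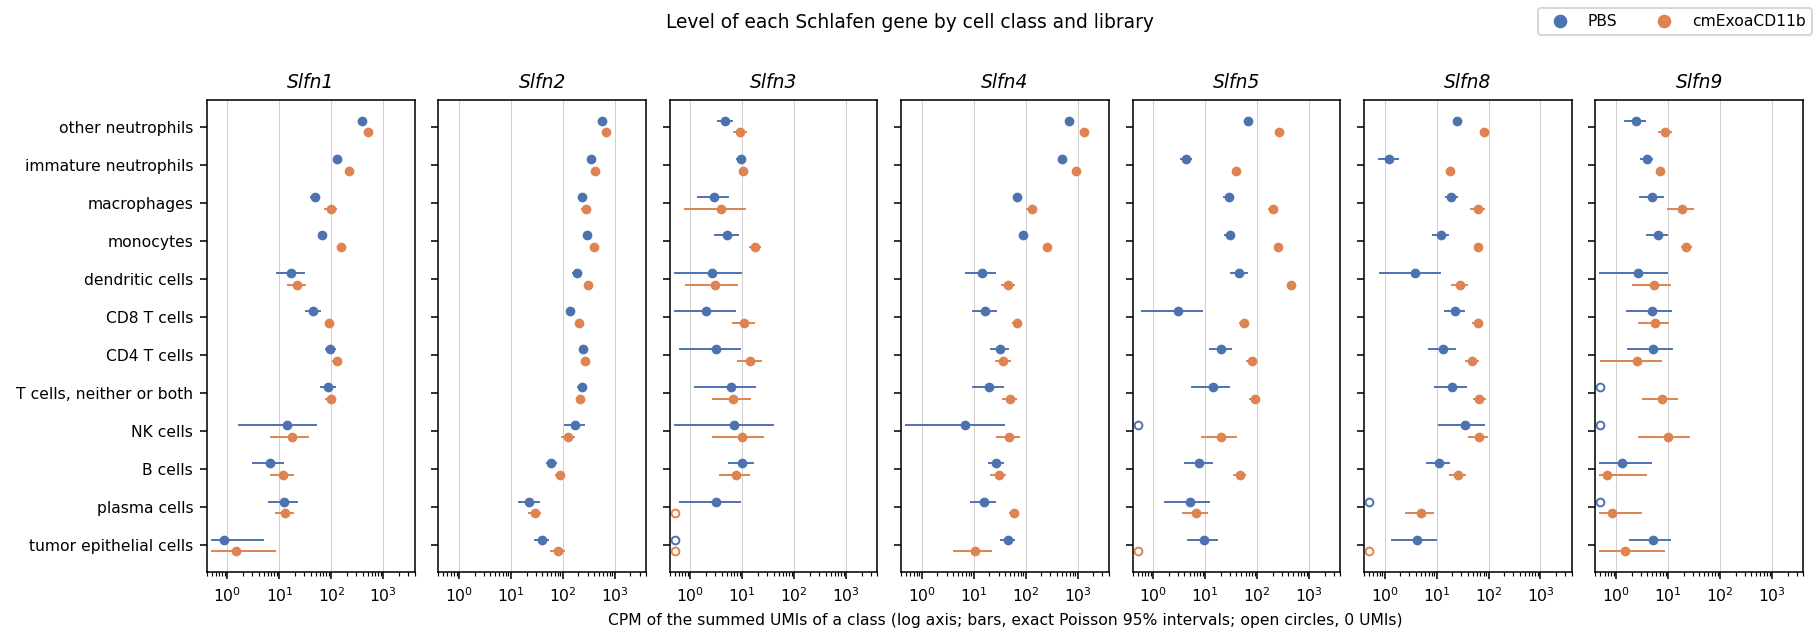
Each panel is a member and each row a cell class, with the level in CPM on a log axis for the PBS and cmExoaCD11b libraries and exact Poisson 95% intervals. Slfn2 lies within 2-fold between the libraries in 11 of 12 classes, and Slfn5 in other neutrophils goes from 67.0 to 262 CPM.

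Of the 84 pairs of a member and a class, 53 had at least 50 UMIs over both libraries. Among these, 29 were at least 2-fold higher in the cmExoaCD11b library, 1 was at least 2-fold lower and 23 were within 2-fold. Monocytes had 6 of 7 members at least 2-fold higher, where 4.33% of all genes with 50 UMIs were, and the median member ratio was 3.415 against 1.07 over all genes. CD8 T cells had 4 of 5 members higher (4.28% of genes), and other neutrophils 3 of 7 (4.94% of genes), with a median member ratio of 1.96 against 0.995. Macrophages had 3 of 5 (4.16% of genes), dendritic cells 2 of 3 (4.72% of genes) and T cells of neither or both lineages 3 of 5 (2.85% of genes). Immature neutrophils had 2 of 7 (3.49% of genes), CD4 T cells 2 of 5 (3.23% of genes) and B cells 2 of 4 (2.0% of genes). Plasma cells had 1 of 2 (6.54% of genes) and NK cells 0 of 1 (17.0% of genes). Tumor epithelial cells had 1 of 2 higher (1.51% of genes) and 1 of 2 lower (4.03% of genes). The counts of CD8 T cells and plasma cells each include Slfn4. Its cmExoaCD11b level there lay below an estimate of stray neutrophil RNA given with the Slfn4 values. In both classes that estimate lay above the upper limit of the measured level, so it was too high there. The count of CD8 T cells also includes Slfn1, which lay at the 2-fold limit and for which that estimate was 3.505 and 27.5 CPM. Slfn4 is also in the counts of T cells of neither or both lineages and of dendritic cells. There 1 cell of the cmExoaCD11b library held 29 of the 51 and 20 of the 61 Slfn4 UMIs. With Fn1 left out of the monocyte list, a setting chosen after seeing the data, all 53 ratios stayed within their intervals, but Arg1 still stood at 1550 and 41.3 CPM in the monocyte gate, so this setting does not make the gates alike. Some other settings moved many ratios. With each cell thinned to 1000 UMIs, only 28 of 52 ratios stayed within their intervals, and the Slfn2 ratio in tumor epithelial cells turned direction. When any UMI counted as a detected marker, 17 of 52 fell outside. The median gene was itself shifted in 4 classes, with a ratio of 1.26 in NK cells, 1.19 in plasma cells, 1.13 in immature neutrophils and 0.929 in tumor epithelial cells.

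The 1778 and 1417 cells that met no class or tied between classes stayed out of these counts. In them Slfn1 had 160.1 and 104 CPM, a ratio of 0.651 (0.593 to 0.715), Slfn2 349.6 and 238 CPM, a ratio of 0.682 (0.6405 to 0.725) and Slfn4 230.4 and 245.5 CPM, a ratio of 1.07 (0.996 to 1.14). Slfn1 and Slfn2 were thus lower in the cmExoaCD11b library, and the Slfn4 interval held 1. Slfn5 had 39.85 and 87.7 CPM, a ratio of 2.20 (1.91 to 2.54), and Slfn8 20.7 and 37.1 CPM, a ratio of 1.80 (1.465 to 2.21).

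Markers of other cells differed between the libraries within the T cell groups. In CD4 T cells the summed level of 5 macrophage markers, among them C1qa and Adgre1, was 608 and 9.23 CPM, and Arg1 stood at 586 and 4.20 CPM. CD8 T cells went the other way, with 86.9 and 297 CPM of the macrophage markers and 27.7 and 1835 CPM of 5 plasma cell markers, which include Jchain. The plasma cell markers had 83.5 and 357.5 CPM in CD4 T cells. T cells of neither or both lineages had 512 and 44.2 CPM of the macrophage markers and 31.7 and 52.9 CPM of the plasma cell markers. The part of such RNA in the Schlafen ratios of T cells was not tested.

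**Figure D3:**
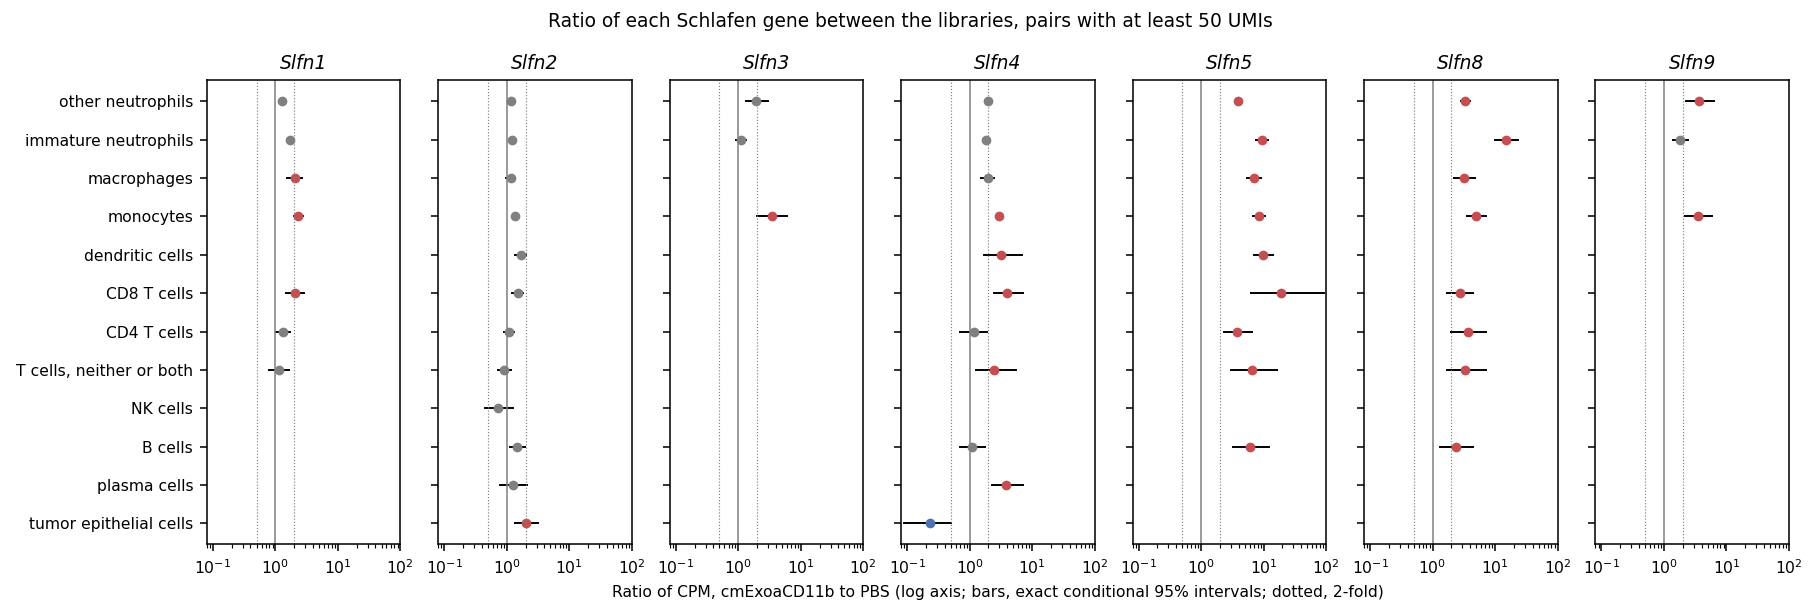
Each panel is a member, with the ratio of CPM (cmExoaCD11b to PBS, log axis) and its exact 95% interval in each class with at least 50 UMIs. All 9 drawn classes of Slfn5 and all 8 of Slfn8 are at least 2-fold higher, against 1 of 12 for Slfn2. The 50 UMIs are summed over both libraries, so a class can pass mainly through its cmExoaCD11b UMIs.

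Of the short members, Slfn2 differed least between the libraries. It was highest in other neutrophils, at 577 CPM (561 to 592) and 682 (663 to 701), a ratio of 1.18 (1.14 to 1.23). The ratio was 1.22 (1.19 to 1.26) in immature neutrophils and 1.33 (1.23 to 1.44) in monocytes. In CD4 T cells Slfn2 had 246 CPM (216 to 279.7) and 266 (238 to 297), and the intervals overlapped. CD8 T cells had 140.3 CPM (118 to 165) and 208 (189 to 229.7), a ratio of 1.49 (1.22 to 1.81), and the intervals did not overlap. Stray neutrophil RNA, estimated from S100a8 and S100a9, would bring 7.42 and 48.9 CPM of Slfn2 into CD8 T cells and 51.3 and 20.2 CPM into CD4 T cells. Dendritic cells had 186 CPM (156 to 219) and 309.7 (280.4 to 341), a ratio of 1.67 (1.375 to 2.03). Neutrophil RNA at the level of S100a8 and S100a9 in those cells would bring 86.4 and 9.41 CPM of Slfn2, and the Slfn2 ratio in dendritic cells was 2.29, past 2-fold, with this RNA subtracted. NK cells had 25 and 51 UMIs of Slfn2, 173 CPM (112 to 255) and 127 (94.8 to 167), a ratio of 0.736 (0.448 to 1.24) whose interval held 1. The PBS level there lay below the 245 CPM of the neutrophil RNA estimate, and 1 cell held 11 of its 25 UMIs, so the first rank of Slfn2 in PBS NK cells rests on few UMIs. The lowest levels were in plasma cells, at 22.8 CPM (14.3 to 34.6) and 28.7 (22.4 to 36.3), both below the 55.65 and 55.3 CPM of that estimate. The interval of the ratio also held 1 in T cells of neither or both lineages, at 0.915 (0.728 to 1.155). The 1 ratio of Slfn2 above 2-fold was in tumor epithelial cells, at 39.0 CPM (28.5 to 52.0) and 80.3 (60.3 to 105). The Slfn2 ratio in tumor epithelial cells was 2.06 but turned to 0.516 when each cell was thinned to 1000 UMIs.

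Slfn1, which slows T cell growth when expressed at high levels, was also highest in neutrophils. Other neutrophils had 395 CPM (382 to 408) and 495 (479 to 512), and immature neutrophils 130.2 CPM (125 to 135) and 219.8 (215 to 225). Its largest ratio was in monocytes, where it went from 65.05 CPM (56.6 to 74.4) to 152 (141 to 163.5), a ratio of 2.335 (2.001 to 2.73). Macrophages and CD8 T cells lay at the 2-fold limit, with ratios of 2.04 (1.53 to 2.70) and 2.04 (1.46 to 2.89). In CD8 T cells Slfn1 had 44.45 CPM (32.4 to 59.5) and 90.6 (77.7 to 105). Neutrophil RNA at the level of S100a8 and S100a9 there would bring 3.505 and 27.5 CPM of it. The Slfn1 ratio in macrophages was 1.30 with thinning to 1000 UMIs, the Slfn1 ratio in CD8 T cells 1.51 with doublets kept, and the Slfn1 ratio in monocytes 1.70 as a mean of single-cell CPM, all under 2-fold. Among lymphocytes Slfn1 was found mainly in T cells, with 95.9 CPM (77.4 to 117.5) and 128 (108 to 149.5) in CD4 T cells. B cells had 10 and 17 UMIs of Slfn1, 6.48 CPM (3.11 to 11.9) and 11.6 (6.77 to 18.6).

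Slfn4, the intermediate member with the most UMIs, was highest in neutrophils in both libraries. Other neutrophils had 688 CPM (671 to 705) and 1348 (1322 to 1375), a ratio of 1.96 (1.90 to 2.02) that lies just inside 2-fold. The Slfn4 ratio in other neutrophils was 1.275 when any UMI counted as a detected marker. Immature neutrophils had 511 CPM (501 to 521) and 947 (936 to 958), a ratio of 1.85 (1.81 to 1.895). Monocytes had 88.5 CPM (78.6 to 99.2) and 262 (247 to 277), a ratio of 2.96 (2.603 to 3.38), and no intervals of the libraries overlapped in these 3 classes. In PBS monocytes 1 cell held 56 of the 291 UMIs. Macrophages had 68.1 CPM (59.65 to 77.3) and 131.5 (107 to 159.7), a ratio of 1.93 (1.515 to 2.45), but 1 of the 60 macrophages of the cmExoaCD11b library held 32 of their 101 UMIs. Without the cell with most UMIs the Slfn4 ratio in macrophages was 1.43, and it turned to 0.773 when any UMI counted as a detected marker. 10% of the empty-droplet profile, the share of free RNA allowed for in the gates, would bring 48.5 and 92.1 CPM of Slfn4. After each cell was thinned to 1000 UMIs, 33.85% and 55.3% of other neutrophils had a Slfn4 UMI (3094 and 2821 UMIs at the median before thinning). The shares in B cells were 2.165% and 3.45% (3722 and 4627 UMIs at the median).

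In lymphocytes and plasma cells, Slfn4 has to be read beside stray neutrophil RNA. S100a8 and S100a9 stood at 2.26% and 13.4% of the empty-droplet level in CD8 T cells, and neutrophil RNA at those levels would bring 10.96 and 123.5 CPM of Slfn4. The measured levels were 16.8 CPM (9.78 to 26.9) and 67.4 (56.4 to 80.0), and 1 cell of the cmExoaCD11b library held 34 of the 131 UMIs. In plasma cells Slfn4 had 15.6 CPM (8.71 to 25.7) and 59.9 (50.6 to 70.4), below the 82.2 and 139.6 CPM of stray RNA. CD4 T cells had 32.0 and 36.9 CPM, below 75.8 and 51.0, and B cells 27.2 and 30.1 CPM, below 36.8 and 35.1. In CD8 T cells the PBS level lay above the estimate, and the cmExoaCD11b level below it. T cells of neither or both lineages had 19.8 CPM (9.51 to 36.5) and 49.0 (36.5 to 64.5), against 47.3 and 29.1 CPM of stray RNA, and 1 cell of the cmExoaCD11b library held 29 of the 51 UMIs. NK cells had 1 and 19 UMIs of Slfn4, 6.92 CPM (0.175 to 38.55) and 47.4 (28.6 to 74.1), against 362 and 29.1 CPM of stray RNA. In dendritic cells the PBS level of 14.4 (7.18 to 25.7) CPM lay below the 127.5 CPM of stray RNA, and the cmExoaCD11b level of 46.3 (35.4 to 59.5) above the 23.8 CPM. The estimate exceeded even the upper limit of the measured level in many of these classes. In the PBS library these were dendritic cells, NK cells, CD4 T cells, T cells of neither or both lineages, plasma cells and, just, B cells. In the cmExoaCD11b library they were CD8 T cells, CD4 T cells and plasma cells. The estimate was therefore too high there and may be elsewhere. How much of the Slfn4 in these classes came from neutrophils was not tested.

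Tumor epithelial cells were the only class with a member of 50 UMIs that was at least 2-fold lower. Slfn4 had 53 and 7 UMIs there, 44.9 CPM (33.6 to 58.7) and 10.4 (4.19 to 21.45), a ratio of 0.232 (0.0889 to 0.512). In the PBS library 1 cell held 30 of the 53 UMIs. When 3 detected markers were asked of a cell, the Slfn4 ratio in tumor epithelial cells was 1.05.

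Slfn3 was low in every class. It had 4.64 CPM (3.36 to 6.25) and 9.065 (7.01 to 11.5) in other neutrophils and 9.29 CPM (7.98 to 10.7) and 10.2 (9.105 to 11.35) in immature neutrophils. Monocytes had 5.17 CPM (3.01 to 8.27) and 17.6 (14.0 to 21.9), a ratio of 3.415 (2.01 to 6.14). CD8 T cells had 2 and 21 UMIs of Slfn3 and CD4 T cells 3 and 17, too few for a call. In the last 500 bases of its annotated transcripts (GENCODE), 15.7% of the 50-base stretches also occur in Slfn4, so reads of this pair can be lost or mixed.

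The long members Slfn5 and Slfn8 were higher in every class with enough UMIs, Slfn5 in 9 of 9 and Slfn8 in 8 of 8. These counts depend in part on the filter, which sums UMIs over both libraries. A class could pass it mainly through its cmExoaCD11b UMIs, as CD8 T cells did with 3 and 109 UMIs of Slfn5. Tumor epithelial cells, with 11 and 0 UMIs of Slfn5 and 5 and 0 of Slfn8, were left out. Some of these ratios fell under 2-fold with other settings. The Slfn5 ratio in T cells of neither or both lineages was 1.61 with cells called by ranked UMIs alone. With thinning to 1000 UMIs the Slfn8 ratio in macrophages was 1.95, the Slfn8 ratio in CD4 T cells 1.17, the Slfn8 ratio in T cells of neither or both lineages 1.74 and the Slfn8 ratio in B cells 1.16. The Slfn8 ratio in other neutrophils was 1.95 when any UMI counted as a detected marker. Slfn5, a nuclear protein, had 67.0 CPM (61.8 to 72.45) and 262 (250 to 274) in other neutrophils, a ratio of 3.91 (3.57 to 4.28). Immature neutrophils had 4.31 CPM (3.44 to 5.335) and 39.9 (37.8 to 42.2), a ratio of 9.27 (7.43 to 11.7). The Slfn5 ratio in immature neutrophils was 3.07 and the Slfn8 ratio in immature neutrophils 2.93 when any UMI counted as a detected marker. Macrophages had 28.3 CPM (22.9 to 34.4) and 200.5 (170 to 235), a ratio of 7.09 (5.47 to 9.23). Monocytes had 30.1 CPM (24.5 to 36.6) and 255 (241 to 269.9), a ratio of 8.47 (6.90 to 10.5). No interval overlapped between the libraries in these 4 classes. After thinning to 1000 UMIs, 5.57% and 17.5% of other neutrophils and 4.56% and 27.6% of monocytes had a Slfn5 UMI. In the cmExoaCD11b library other neutrophils and monocytes had like levels, with a ratio of 1.03 (0.954 to 1.10) between the classes.

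Dendritic cells had the highest Slfn5 level of the 12 classes in the cmExoaCD11b library, 455 (419 to 493) CPM, against 45.75 (31.9 to 63.6) CPM in the PBS library, a ratio of 9.94 (7.065 to 14.4). The gate held different cells in the libraries, with 12 of 59 and 48 of 100 cells nearest to the type 1 list, the cross-presenting dendritic cells marked by Xcr1 and Clec9a. Within that list Slfn5 had 149 (89.7 to 233) and 618 (560.3 to 680.5) CPM. Within the type 2 list it had 32.0 (18.3 to 51.9) and 231 (189 to 279) CPM, so the intervals did not overlap in either.

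In lymphocytes Slfn5 started from few UMIs. CD8 T cells had 3 and 109 UMIs, 2.96 CPM (0.611 to 8.66) and 56.1 (46.1 to 67.7), and the ratio of 18.9 (6.31 to 93.2) had a wide interval. The Slfn5 ratio in CD8 T cells was 3.22 when each cell was thinned to 1000 UMIs. CD4 T cells had 20.6 CPM (12.6 to 31.85) and 78.05 (63 to 95.6), a ratio of 3.785 (2.32 to 6.48). T cells of neither or both lineages had 13.9 CPM (5.58 to 28.6) and 90.4 (73.0 to 111), a ratio of 6.51 (3.04 to 16.6). B cells had 7.77 CPM (4.02 to 13.6) and 47.2 (36.7 to 59.7), a ratio of 6.07 (3.26 to 12.3). Stray neutrophil RNA would bring 13.6 CPM of Slfn5 into CD8 T cells, 5.635 into CD4 T cells and 3.87 into B cells of the cmExoaCD11b library, all below the levels measured. Plasma cells had 5 and 16 UMIs of Slfn5 and NK cells 0 and 8, too few for a call. Tumor epithelial cells had 11 and 0 UMIs, 9.32 CPM (4.65 to 16.7) and 0 (0 to 5.49).

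Slfn8 was lower than Slfn5 in neutrophils, monocytes, macrophages and dendritic cells of both libraries, but not in CD8 T cells or NK cells. Other neutrophils had 24.8 CPM (21.7 to 28.2) and 83.1 (76.6 to 90.0) of Slfn8, a ratio of 3.35 (2.87 to 3.92), and monocytes 12.2 CPM (8.69 to 16.6) and 61.3 (54.4 to 68.9), a ratio of 5.04 (3.61 to 7.21). Its largest ratio was in immature neutrophils, 14.9 (9.905 to 23.4), from 1.23 CPM (0.789 to 1.83) to 18.3 (16.9 to 19.9). CD8 T cells had 22.7 CPM (14.4 to 34.1) and 61.75 (51.2 to 73.8), a ratio of 2.72 (1.73 to 4.45). In those cells the PBS level of Slfn8 was above that of Slfn5, without overlap of the intervals, and the cmExoaCD11b levels overlapped. The ratio of Slfn8 was 3.23 (2.18 to 4.755) in macrophages, 3.63 (1.97 to 7.23) in CD4 T cells, 3.34 (1.71 to 7.28) in T cells of neither or both lineages and 2.36 (1.30 to 4.46) in B cells. NK cells had 5 and 26 UMIs of Slfn8, which ranked second to Slfn2 there in both libraries.

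Slfn9 was the rarest long member. It had 2.37 CPM (1.49 to 3.59) and 8.79 (6.77 to 11.2) in other neutrophils, a ratio of 3.705 (2.25 to 6.32), and 6.38 CPM (3.95 to 9.76) and 22.6 (18.5 to 27.35) in monocytes, a ratio of 3.54 (2.20 to 5.96). In immature neutrophils the ratio was 1.82 (1.39 to 2.39), within 2-fold. Macrophages had 17 and 14 UMIs of Slfn9, under the number needed for a call. Of the 50-base stretches in the last 500 bases of Slfn8 transcripts, 13.8% also occur in Slfn9, and 8.28% of those of Slfn9 occur in Slfn8.

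Within classes, Slfn5 was higher in the cells with the strongest interferon response. Cells were called interferon-high when, thinned to 1000 UMIs, they had at least 2 UMIs over Isg15, Ifit1, Ifit3, Rsad2 and Usp18, all interferon-stimulated genes, and were set against cells with 0. This is a range and not a cell type, and 318 and 294 other neutrophils had exactly 1 UMI. The share of interferon-high cells was 16.95% (15.5 to 18.5) and 47.2% (45.0 to 49.5) in other neutrophils and 10.4% (6.83 to 14.9) and 33.8% (28.4 to 39.55) in monocytes, and it was higher in the cmExoaCD11b library in 11 of 12 classes, the exception being tumor epithelial cells. The exception rests on 4 and 1 interferon-high cells, 9.09% (2.53 to 21.7) and 3.125% (0.0791 to 16.2), and these intervals overlapped. Few cells also stood behind NK cells, with 3 and 21, B cells, with 0 and 7, and plasma cells, with 0 and 4, and their intervals overlapped too. So did those of CD4 T cells, 40.6% (32.3 to 49.3) and 49.1% (42.15 to 56.0). Dendritic cells had 35.1% (22.9 to 48.9) and 51.5% (41.25 to 61.7), again with overlap. Slfn5 was higher in interferon-high cells, with an interval above 1, in 9 of 9 combinations of class and library with enough cells and UMIs. The count was 6 of 8 for Slfn8, 7 of 9 for Slfn1, 5 of 7 for Slfn4, 6 of 11 for Slfn2, 1 of 3 for Slfn3 and 2 of 3 for Slfn9. Over all genes with enough UMIs in the same comparisons, 15.8% had an interval above 1. These counts depend in part on the filter, which sums UMIs over both ranges. A combination could pass it mainly through its interferon-high cells. CD8 T cells of the cmExoaCD11b library did so, with 17 UMIs of Slfn5 in cells with 0 and 81 in interferon-high cells.

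In interferon-high other neutrophils, Slfn4 was alike in the libraries. Those cells had 2339 and 2300 CPM, a ratio of 0.9835 (0.944 to 1.025), and cells with 0 UMIs had 314 and 486.5 CPM, a ratio of 1.55 (1.45 to 1.66). Slfn2 had 885 and 904 CPM in interferon-high cells, a ratio of 1.02 (0.956 to 1.09), and Slfn1 643 and 707 CPM, a ratio of 1.10 (1.02 to 1.19). In cells with 0 UMIs both were lower in the cmExoaCD11b library, with ratios of 0.908 (0.853 to 0.966) for Slfn2 and 0.880 (0.814 to 0.951) for Slfn1. In the 1755 PBS cells with 0 UMIs, Slfn2 at 515 CPM and Slfn1 at 336 CPM both stood above Slfn4 at 314 CPM. In such cells of the cmExoaCD11b library Slfn2 had 468 CPM and Slfn4 486.5 CPM. Slfn5 was higher in the cmExoaCD11b library in both ranges, at 292 and 510.1 CPM in interferon-high cells, a ratio of 1.75 (1.57 to 1.95), and 19.0 and 49.2 CPM in cells with 0 UMIs, a ratio of 2.595 (2.03 to 3.31). Slfn8 had ratios of 1.42 (1.18 to 1.71) and 3.32 (2.31 to 4.81) in the same ranges. In immature neutrophils with 0 UMIs the ratio was 7.15 (5.30 to 9.84) for Slfn5 and 10.7 (6.69 to 18.0) for Slfn8. In dendritic cells of the cmExoaCD11b library Slfn4 had 59.2 and 44.6 CPM in cells with 0 UMIs and in interferon-high cells, a ratio of 0.753 (0.437 to 1.30) whose interval held 1.

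**Figure D4:**
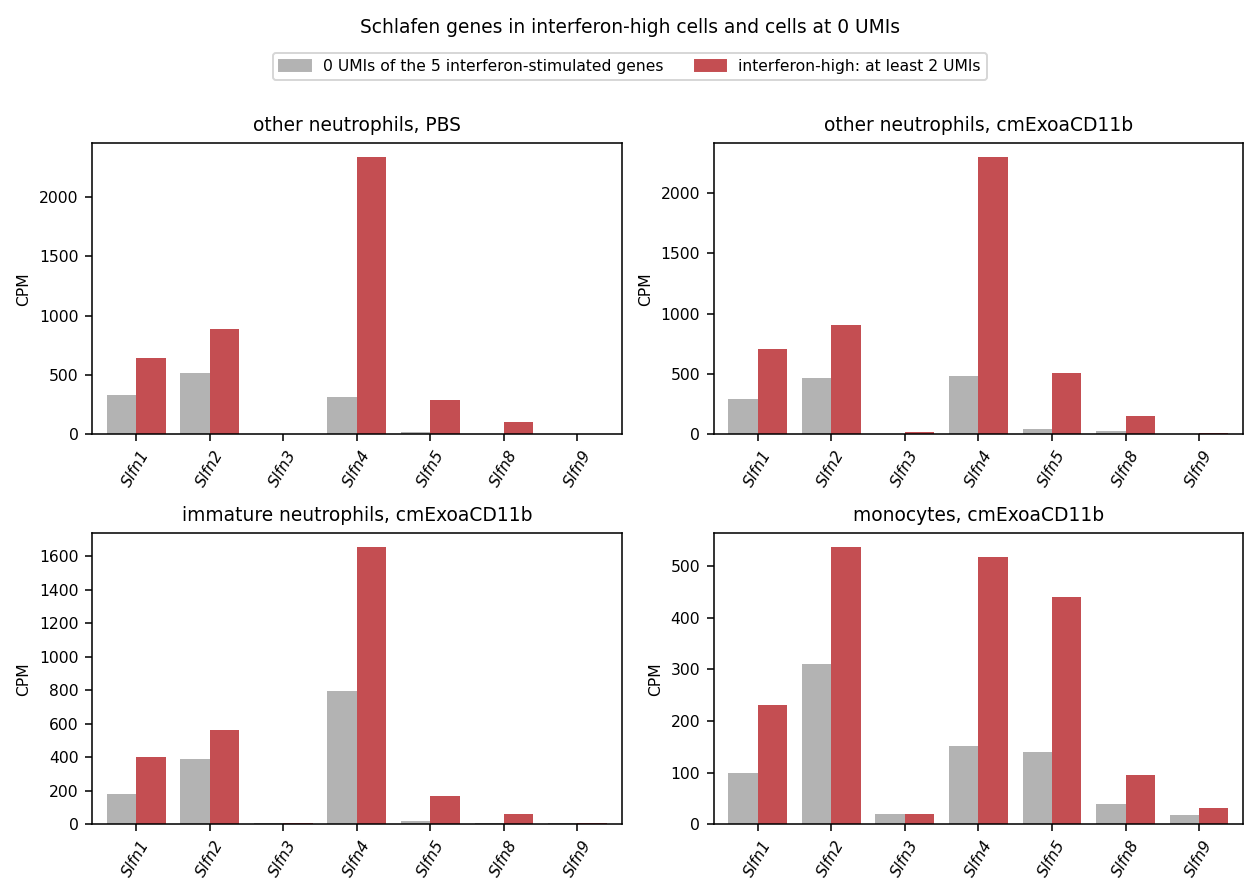
Bars give the CPM of each member in cells with 0 UMIs of the 5 interferon-stimulated genes and in interferon-high cells, for classes of the PBS and cmExoaCD11b libraries. In interferon-high other neutrophils Slfn4 stands at 2339 and 2300 CPM in the PBS and cmExoaCD11b libraries.

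As a share of all UMIs, Slfn1, Slfn2, Slfn4 and Slfn5 were lower in dividing immature neutrophils of both libraries, and Slfn3 and Slfn9 were higher. The share of all genes lower or higher in dividing cells was not taken, so whether the members stand out was not tested. In this class 353 and 609 cells had at least 2 of Mki67, Top2a, Birc5, Cdk1 and Ccnb2. Slfn4 had 694 and 311 CPM in non-dividing and dividing cells of the PBS library, a ratio of 0.448 (0.429 to 0.468), and 1339 and 579 CPM in the cmExoaCD11b library, a ratio of 0.4325 (0.422 to 0.443). The ratios of Slfn1 were 0.248 (0.224 to 0.274) and 0.303 (0.287 to 0.320), and those of Slfn2 0.757 (0.721 to 0.795) and 0.663 (0.640 to 0.686). Slfn3 went the other way, with 4.72 and 14.3 CPM in non-dividing and dividing cells of the PBS library, a ratio of 3.02 (2.16 to 4.295), and a ratio of 2.20 (1.73 to 2.82) in the other library. Slfn9 had ratios of 3.05 (1.80 to 5.37) and 3.57 (2.57 to 5.03). Dividing cells were deeper, with medians of 25269 and 23522 UMIs against 11636 and 10598, and the part of depth and maturity in these ratios was not tested. A lower share did not always mean fewer UMIs per cell. Slfn2 had 3941 UMIs in 830 non-dividing and 2736 in 353 dividing cells of the PBS library. In the same cells Slfn4 had 7060 and 2902 UMIs, so its UMIs per cell hardly differed. Between the libraries Slfn4 had a ratio of 1.86 (1.79 to 1.94) in dividing cells and 1.93 (1.88 to 1.98) in non-dividing cells.

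**Figure D5:**
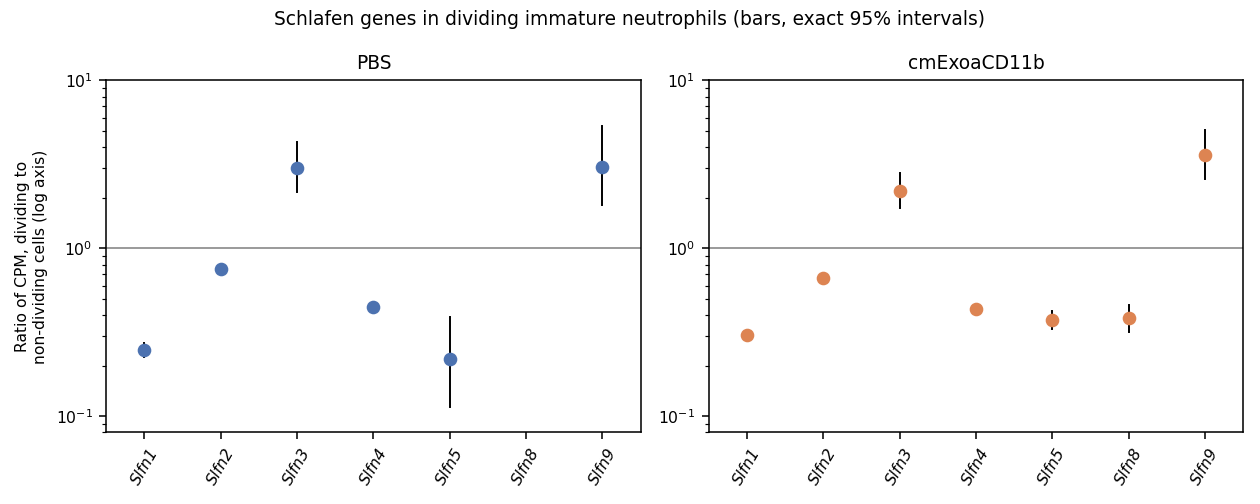
Points give the ratio of CPM, dividing to non-dividing immature neutrophils, for each member in the PBS and cmExoaCD11b libraries on a log axis with exact 95% intervals. Slfn3 and Slfn9 lie above 1 in both libraries, and Slfn1, Slfn2, Slfn4 and Slfn5 lie below 1.

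The wider interferon pathway was followed with 25 listed genes. The list was chosen with earlier results of these data known, so its counts are descriptions and cannot test the pathway. Over all genes with enough UMIs, the share at least 2-fold higher ran from 1.51% in tumor epithelial cells to 17.0% in NK cells. Of the counted targets, such as Isg15 and Ifit3, 9 of 11 were at least 2-fold higher in other neutrophils, 10 of 11 in immature neutrophils, 9 of 11 in macrophages, 10 of 11 in monocytes and 10 of 11 in CD8 T cells. The counts were 6 of 11 in CD4 T cells, 6 of 11 in T cells of neither or both lineages, 5 of 7 in NK cells, 4 of 7 in B cells, 4 of 6 in plasma cells and 5 of 7 in tumor epithelial cells. Dendritic cells, which had the highest Slfn5 level, had 4 of 11 targets higher and 1 at least 2-fold lower. Of the transcription factors, 4 of 6, 3 of 6, 5 of 6 and 2 of 6 were higher in other neutrophils, immature neutrophils, monocytes and CD8 T cells, and 4 of 5 in dendritic cells. Of the receptors and kinases, among them Ifnar1 and Jak1, none was 2-fold higher in any of the 12 classes, and 1 was lower in plasma cells. Stat2, a subunit of the factor that binds the response element, had a ratio of 3.24 (2.78 to 3.78) in other neutrophils and 5.17 (4.01 to 6.75) in monocytes. The part of this factor in the Schlafen levels was not tested.

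The genes most like each member were taken by Pearson's r of log2(CPM + 1) over 18 sums of a class in a library with at least 100 cells, among 8737 genes. Slfn5 was nearest to Oasl1 (0.89), Trafd1 (0.88) and Stat2 (0.87), and Slfn8 to Xaf1 (0.9405), Parp14 (0.91) and Trim30a (0.90). Slfn4 was nearest to Hdc (0.98), Mgam (0.96) and Lrg1 (0.96). Slfn1 was nearest to Plk3 (0.9285), Slfn2 to Rab11fip1 (0.93), Slfn3 to Mtmr3 (0.85) and Slfn9 to Cgas (0.85), the sensor that makes cGAMP. Slfn3 and Slfn9 had 50 UMIs in only 4 and 4 of the 18 sums, so their nearest genes rest on few counts. Among the members, Slfn1 and Slfn2 had the highest r to each other, 0.869. The sums share libraries, depth and free RNA, and these values are descriptions without a test.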

How the data were processed

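Droplet 3′ single-cell RNA-seq was done on 2 libraries, PBS and cmExoaCD11b, each of 3 pooled mice. The deposited files hold unfiltered whole-number UMI counts per gene and barcode, made by the authors with Cell Ranger (version 7.1.0 in the file header). The genome build is not given in the sources used here. Cells were called by an ambient-profile test with at least 500 UMIs and a false discovery rate of 0.01, and cells under 200 detected genes or above 20% UMIs from mitochondria were dropped. Scrublet (in scanpy 1.11.5) set no usable threshold, so 421 and 452 top-scoring cells were removed as doublets at an expected rate of 0.8% per 1000 cells. A class needed at least 2 of 5 listed markers above free RNA (Poisson p below 0.01 at 10% of the empty-droplet profile) and no tie, which left 1778 and 1417 cells ungated. UMIs were summed per class and library into CPM with exact Poisson intervals, shares had exact Clopper-Pearson intervals and ratios exact conditional intervals (scipy 1.17.1). A pair was called at 2-fold and 50 UMIs. The ratio, its interval and the 2-fold call were tested on simulated Poisson sums of other neutrophils, monocytes and CD8 T cells. Those sums held no spread between cells, and cell calling, gating and the stray RNA estimate were not tested in this way. With a single library per condition there was no test. Named were the 7 members, other features whose symbol begins with Slfn (Slfn14, Slfn5os and Slfnl1, nearly without UMIs), a fixed interferon list and the 3 genes most like each member. The members and lists were chosen with earlier results of these data known. Settings of cell calling, doublets, mitochondrial limit, markers, free RNA, averaging, thinning, scaling and minimum UMIs were varied. Stray neutrophil RNA in a class was estimated from its S100a8 and S100a9 level against empty droplets. Promoter and gene positions are from RefSeq (GRCm38.p6).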

Additional observations from a re-analysis of the deposited data

Results flagged for a closer look

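The Slfn4 ratio in tumor epithelial cells, 0.232, went against the other classes with 50 UMIs, whose Slfn4 ratios lay between 1.11 in B cells and 4.015 in CD8 T cells, and the difference between classes was not tested. It rests on 53 and 7 UMIs in 49 and 32 cells.

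Empty droplets, which are not part of the cell comparisons, held more of the long members in the cmExoaCD11b library. Slfn5 had 25.1 and 102 CPM, a ratio of 4.05 (3.20 to 5.185), and Slfn8 had 11.7 and 34.6 CPM, a ratio of 2.965 (2.07 to 4.34). Slfn4 had 485 and 921 CPM, a ratio of 1.90 (1.79 to 2.01) in the same droplets.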

How the results depend on the processing

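No paired analysis was possible because each condition is 1 library and no result comes from a test, so no replicate could be left out either. The count of 29 pairs at least 2-fold higher fell to 19 of 37 pairs with 50 UMIs when cells were called by ranked UMIs alone, and to 6 of 17 when cells were thinned to 1000 UMIs, which leaves fewer UMIs. Under the other settings it lay between 23 and 34. The count of 1 pair lower was 0 with ranked UMIs alone, with at least 3 detected markers, with free RNA subtracted and with thinning, and 2 with neutrophil RNA subtracted. The Slfn4 ratio in CD8 T cells turned from 4.015 to 0 with neutrophil RNA subtracted, since the subtracted amount exceeded the level, and the Slfn2 ratio in dendritic cells moved to 2.29. That subtraction can remove too much, since it exceeds the Slfn4 measured in many classes. Among them are PBS dendritic and NK cells, cmExoaCD11b CD8 T cells, and CD4 T cells and plasma cells of both libraries. The Slfn4 ratio in macrophages turned to 0.773 when any UMI counted as a marker. The Slfn2 ratio in tumor epithelial cells turned to 0.598 as a mean of single-cell CPM and 0.516 with thinning. The Slfn4 ratio in tumor epithelial cells turned to 1.02 with ranked UMIs alone and 1.05 with 3 markers. The cause was not tested for the epithelial ratios. The Slfn4 ratio in other neutrophils was 1.275 when any UMI counted as a marker, and the Slfn5 ratio in CD8 T cells was 3.22 with thinning. The settings without Fn1 in the monocyte list, without the cell with most UMIs and with neutrophil RNA subtracted were chosen after seeing the data, and without Fn1 all 30 calls were kept. Slfn3 and Slfn9 were too rare for a call in 9 of 12 classes each, and differences there were not detectable at this depth.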
